A study of Arabidopsis thaliana with 16 samples.

Results

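The genes described here are 36 genes of fatty acid and storage oil synthesis, taken by locus identifier from the 37336 identifiers in the deposited counts. They are the regulator WRI1 and genes of 8 enzymatic steps: plastid pyruvate kinase, plastid pyruvate dehydrogenase, acetyl-CoA carboxylase, the enzymes of fatty acid synthase, the acyl carrier proteins, release and export of the fatty acids, desaturation and elongation, and oil assembly. In mature dry seeds many of these transcripts were rare: 17 of the 36 passed the filter on low counts, as did 10251 of the 21204 genes with at least 1 count, and 19 did not. The other 19 are therefore given as counts and sums.

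RNA of mature dry Arabidopsis seeds was sequenced by 3′RNA-Seq, a method that reads only the tail ends of polyadenylated transcripts, in 4 genotypes with 4 libraries each. The brm-3 seeds carry a T-DNA insertion in BRM, one of several ATPases of SWI/SNF chromatin remodelers, and are reported to lack its bromodomain rather than the whole protein. The dog1-4 seeds carry an insertion in DOG1, a regulator of seed dormancy, brm-3dog1-4 is the cross of both, and Col-0 is the wild type. Each mutant is a single allele, and the labels number the libraries without saying whether they came from separate plants. Total counts were 1627347 to 2031600 in brm-3, 803578 to 1516604 in dog1-4, 977878 to 2359673 in brm-3dog1-4 and 1467125 to 2273515 in Col-0. DOG1 itself had 144 to 206 counts in brm-3, 2 to 7 in dog1-4, 2 to 10 in brm-3dog1-4 and 124 to 203 in Col-0. BRM averaged 11.8 CPM in brm-3, 31.0 in dog1-4, 12.7 in brm-3dog1-4 and 28.0 in Col-0, where CPM is counts per 1000000 after TMM scaling of the library sizes. Both genes followed the labels, and 7 seed maturation markers such as cruciferins and oleosins held 7.30% to 8.85% of the scaled counts in brm-3, 7.18% to 10.0% in dog1-4, 5.63% to 7.40% in brm-3dog1-4 and 8.53% to 11.8% in Col-0.

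Arabidopsis seeds store carbon as triacylglycerol, which is made while the embryo fills and is used up after germination. Plastids make pyruvate and acetyl-CoA, acetyl-CoA carboxylase turns acetyl-CoA into malonyl-CoA, and fatty acid synthase extends acyl chains that are held on acyl carrier protein. The fatty acids leave the plastid, are desaturated or elongated at the endoplasmic reticulum and are joined to glycerol there. WRI1 is an AP2-type transcription factor that raises expression of the plastid steps in filling seeds and is known to bind the AW-box, and its targets are usually expressed at lower levels once seeds are mature.

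The AW-box has the letters CNTNG, any 7 bases, then CG, and was searched on both strands in the window of 250 bases before to 50 bases after each gene start of the RefSeq annotation of TAIR10.1. It was found in the windows of 7 of the 36 genes (19.4%), against 11.9% of the 27443 windows of all protein-coding nuclear genes. The sites in PDH-E1 ALPHA, CAC3 and LPLAT2, the 3 with this motif that also passed the count filter, are shown because the first 2 were higher in brm-3dog1-4 seeds while LPLAT2 was not. Capitals mark the fixed letters of the motif, with 4 bases on each side.
PDH-E1 ALPHA: aaaaCaTtGgtgttaaCGaaga
CAC3: gtcaCgTgGgcacgtgCGagag
LPLAT2: caaaCcTcGtcaagatCGaaac
The motif lies at chr1:49373-49386, minus strand, for PDH-E1 ALPHA, 82 bases before the gene start. It lies at chr2:15917034-15917047, plus strand, for CAC3 and at chr1:23378314-23378327, minus strand, for LPLAT2, both just inside the annotated transcript. The other 4 windows with a match were those of PDH-E1 BETA, AT2G22230, ACP1 and LACS9. PKP-ALPHA, CAC2, ACP2, ACP3, SSI2 and FAD2, which were also called higher in brm-3dog1-4 seeds, had no match. The ABRE core ACGTG, a motif of abscisic acid responses, was in 9 of the 36 windows (25.0%) and in 26.7% of all windows, and the CAC3 site overlaps one. The RY element CATGCA was in 5 (13.9%) and in 9.72% of all. These matches are descriptions of letters and were not tested.

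In the double mutant 8 of the 12 tested genes that act before oil assembly were called higher than in Col-0 and 1 lower, and 1 of the 5 tested oil assembly genes was lower. With total counts in place of TMM, 11 of the 12 and 2 of the 5 (GPAT9 and PDAT) were higher. On that scale the median tested gene itself stood 0.58 above Col-0 (log2), and the share of all genes called was not counted. No test compared the genes before oil assembly with those of oil assembly. Over all 17 genes, 8 in brm-3dog1-4 seeds were called higher than in Col-0 and 2 lower, with edgeR's quasi-likelihood test and a threshold of 0.05 on the p-value adjusted over every tested gene, where 22.8% of all tested genes were called higher and 23.3% lower. The single mutants had few calls. In brm-3 seeds 2 genes were higher and 1 lower (5.22% and 5.02% of all tested genes), and in dog1-4 seeds 2 were higher and 0 lower (9.84% and 8.58%). DESeq2 also called 0 lower in dog1-4, and at an unadjusted p under 0.05 the edgeR test had 2 lower there, LPLAT2 and TAG1. For the 17 genes the median log2 fold change in brm-3 was -0.06, in dog1-4 it was 0.23 and in brm-3dog1-4 it was 0.57, while for all tested genes it was between -0.00 and 0.01. These counts and medians cover only genes that passed the filter, and 4 of them, CAC2, AT1G24360, ACP2 and ACP4, passed it only with the brm-3dog1-4 libraries, where they were highest. All 4 act before oil assembly, so the 8 of the 12 include CAC2 and ACP2, which had to be high there to be tested. Of the other 13 genes, 6 were higher and 2 lower in brm-3dog1-4. The 6 include ACP3, which had 0 Col-0 libraries over the filter's cutoff, and PDH-E1 ALPHA, which had 1. Both therefore entered through mutant libraries, where they were higher, and the 13 are not free of this selection.

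**Figure D1:**
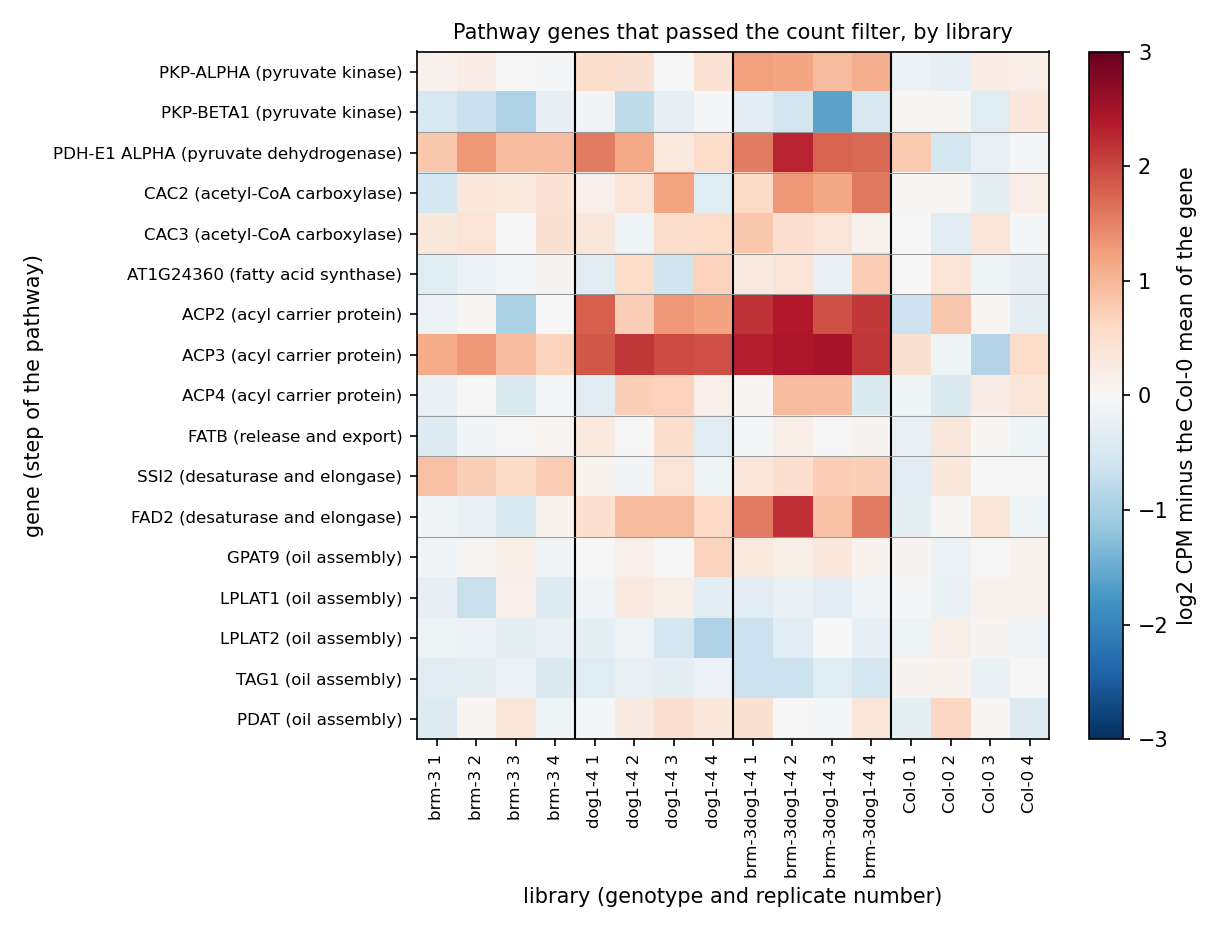
Log2 CPM of the 17 genes that passed the count filter, each minus its own Col-0 mean, in columns for the 16 libraries and rows for the genes in pathway order. ACP2, ACP3, PDH-E1 ALPHA, FAD2 and PKP-ALPHA are red in all 4 brm-3dog1-4 libraries, and among the oil assembly rows at the bottom TAG1 is blue in all 4, while GPAT9 is red in dog1-4 replicate 4, at 41.2 CPM.

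All 36 genes can be counted without a filter by whether the libraries overlap. Every brm-3dog1-4 library was above every Col-0 library in CPM for 15 of the 36 genes, which held for 13.5% of all genes with a count, and every one was below for 1 gene, TAG1 (10.6% of all genes). Of these 15, 8 had passed the filter and 7 had not, and 1, GPAT9, was an oil assembly gene. For brm-3 the numbers were 2 above (4.35% of all genes) and 1 below (4.11%), and for dog1-4 they were 3 above (5.94%) and 1 below (5.16%). The gene below in both single mutants was LPLAT2. Mean CPM was over that of Col-0 for 18 of the 36 genes in brm-3 (47.6% of all genes with a count), 25 in dog1-4 seeds (47.7%) and 30 in the double mutant (55.1%).

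The share of RNA that these genes made up was small in every genotype. Together they held 0.0330% ± 0.0017 of the counts in brm-3, 0.0424% ± 0.0030 in dog1-4, 0.0670% ± 0.0105 in brm-3dog1-4 and 0.0335% ± 0.0023 in Col-0 (SD, n = 4 each). These are shares of total counts without TMM scaling. On that scale the median tested gene also stood above Col-0, by 0.58 in brm-3dog1-4, 0.22 in dog1-4 and 0.03 in brm-3 (log2). In whole seeds, fewer cells of a type and less RNA per cell cannot be told apart.

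WRI1 was close to undetected. It had 2, 1, 1 and 0 counts in the brm-3 libraries, 1, 1, 1 and 2 in dog1-4, 9, 4, 1 and 4 in brm-3dog1-4, and 0, 1, 0 and 0 in Col-0. In brm-3dog1-4 the ratio of CPM from summed counts to Col-0 was 11.9, with an exact 95% interval of 1.89 to 498 that covers counting error only. The intervals for brm-3 (0.367 to 182) and dog1-4 (0.683 to 289) included no difference. All 4 brm-3dog1-4 libraries were above all Col-0 libraries in CPM, but the third (0.876 CPM) and the second Col-0 library (0.814 CPM) had 1 count each, so that this separation came from the scaling of the libraries alone.

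At the pyruvate kinase step both subunits of the plastid enzyme were measured, and they went opposite ways in the double mutant. PKP-ALPHA, the alpha subunit, had 27.3, 29.1, 25.1 and 24.1 CPM in brm-3, 36.6, 33.6, 24.4 and 33.6 in dog1-4, 60.5, 58.8, 49.1 and 54.8 in brm-3dog1-4, and 22.2, 20.3, 29.0 and 28.9 in Col-0. The brm-3dog1-4 libraries lay above all 12 others. The log2 fold change was 1.17 ± 0.14 (SE) with an adjusted p of 5.46e-10 in brm-3dog1-4, against 0.08 ± 0.17 in brm-3 and 0.36 ± 0.17 in dog1-4, neither of them called. PKP-BETA1, the beta subunit, had 25.3, 22.4, 18.5 and 30.6 CPM in brm-3, 34.1, 19.4, 30.1 and 34.4 in dog1-4, 29.4, 24.7, 10.5 and 26.0 in brm-3dog1-4, and 37.3, 36.6, 27.3 and 45.0 in Col-0. Each mutant overlapped Col-0, and did so through the third Col-0 library alone. It fell by 0.61 on the log2 scale in brm-3 (SE 0.19, edgeR adjusted p 0.0315) and by 0.61 in brm-3dog1-4 (SE 0.18, edgeR adjusted p 0.00477), both relative to the median gene. The brm-3 call was lost with DESeq2, with total counts in place of TMM, and without any one of Col-0 replicates 1, 2 and 4 or brm-3 replicates 1, 2 and 3. The brm-3dog1-4 value was -0.04 with total counts and was then not called.

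The pyruvate dehydrogenase complex, which makes acetyl-CoA in the plastid, was measurable through its E1 alpha subunit. PDH-E1 ALPHA had 6.83, 10.3, 7.76 and 7.64 CPM in brm-3, 12.4, 7.74, 4.07 and 5.34 in dog1-4, 12.8, 22.2, 14.0 and 14.2 in brm-3dog1-4, and 7.07, 1.63, 2.41 and 3.21 in Col-0. All brm-3dog1-4 libraries were above all others, while both single mutants overlapped Col-0 only at the first Col-0 library. PDH-E1 ALPHA passed the filter mainly through mutant libraries, since 1 Col-0 library was over the cutoff. The log2 fold change was 2.02 ± 0.31 in brm-3dog1-4 (edgeR adjusted p 2.26e-07), 1.03 ± 0.38 in brm-3 and 0.94 ± 0.40 in dog1-4, the last 2 not called. Without Col-0 replicate 1, the deepest of the Col-0 libraries, they were 1.69 in brm-3 and 1.60 in dog1-4 and passed the threshold. The dog1-4 value also passed with total counts and without dog1-4 replicate 3. Of the 3 other subunit genes, PDH-E1 BETA had 2 counts over all 16 libraries together, LTA2 (the E2 subunit) had at most 7 in a library and AT2G34590, a second E1 beta gene, had 2 to 25.

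Acetyl-CoA carboxylase, which commits acetyl-CoA to fatty acid synthesis, was represented by CAC2 (biotin carboxylase) and CAC3 (the carboxyltransferase alpha subunit). CAC2 had 1.37, 3.64, 3.58 and 4.11 CPM in brm-3, 3.10, 2.58, 7.33 and 1.53 in dog1-4, 4.97, 8.99, 7.01 and 10.9 in brm-3dog1-4, and 3.03, 2.44, 1.61 and 3.21 in Col-0. Its brm-3dog1-4 libraries were above all of Col-0 and brm-3, and it rose by 1.59 ± 0.40 on the log2 scale there (edgeR adjusted p 0.000727). In brm-3 the value was 0.28 ± 0.51 and in dog1-4 0.45 ± 0.52, with -0.13 when dog1-4 replicate 3 was left out. CAC2 passed the filter only with the brm-3dog1-4 libraries, so it had to be high in them to be tested at all. CAC3 rose by 0.54 ± 0.21 in brm-3dog1-4 (edgeR adjusted p 0.0304), where its 14.7 to 24.0 CPM overlapped the 9.77 to 16.9 CPM of Col-0. Both gene ends overlap a gene on the other strand, and how the counting used strand is not given in the sources used here. The 2 biotin carboxyl carrier genes were too low to test. CAC1 had 0, 2, 0 and 1 counts in brm-3, 0, 0, 2 and 0 in dog1-4, 6, 11, 1 and 5 in brm-3dog1-4 and none in any Col-0 library, where 0 counts allow up to 1.51 to 2.44 CPM per library. BCCP2, the other carrier, had 1 count in brm-3, 8 in dog1-4, 8 in brm-3dog1-4 and 1 in Col-0, summed over libraries.

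Among the fatty acid synthase enzymes only AT1G24360, the ketoacyl-ACP reductase, passed the filter. Its CPM was 3.41, 4.25, 4.78 and 5.29 in brm-3, 3.72, 6.45, 2.44 and 8.40 in dog1-4, 6.63, 7.39, 3.50 and 9.63 in brm-3dog1-4, and 5.05, 6.51, 4.02 and 3.86 in Col-0. All groups overlapped and no comparison with Col-0 was called, the log2 fold change being 0.57 ± 0.34 in brm-3dog1-4, 0.08 ± 0.41 in dog1-4 and -0.11 ± 0.40 in brm-3. The other 7 were below the filter, and their mean CPM in the double mutant was over that of Col-0. The same held for 58.5% of all 10953 genes under the filter. KASI, the condensing enzyme of most chain extension cycles, had 9 counts in brm-3, 5 in dog1-4, 41 in brm-3dog1-4 and 3 in Col-0 over the 4 libraries. FAB1, the condensing enzyme that makes stearoyl-ACP, had 9 in brm-3, 4 in dog1-4 seeds, 44 in the double mutant and 5 in Col-0. EMB3147, which loads malonyl groups onto acyl carrier protein, had 33 in the double mutant against 4 in Col-0, with 4 in brm-3 and 7 in dog1-4. MOD1, the enoyl-ACP reductase, had 27 in the double mutant against 7 in Col-0, with 4 in brm-3 and 8 in dog1-4. KAS III, which starts the chain, had 25 in the double mutant against 5 in Col-0, with 5 in brm-3 and 13 in dog1-4. In each of these 5 genes all brm-3dog1-4 libraries were above all Col-0 libraries in CPM, which held for 13.5% of all genes with a count. The dehydratase genes AT2G22230 and AT5G10160 had at most 9 counts summed over a genotype, and the genotypes overlapped.

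Acyl carrier proteins showed the widest differences. ACP3 had 8.19, 9.71, 7.17 and 5.88 CPM in brm-3, 14.9, 16.8, 15.5 and 15.3 in dog1-4, 21.5, 23.1, 22.8 and 18.8 in brm-3dog1-4, and 5.05, 2.44, 0.804 and 5.14 in Col-0. No 2 genotypes overlapped, in the order brm-3dog1-4, dog1-4, brm-3 and Col-0. ACP3 passed the filter through mutant libraries alone, since 0 Col-0 libraries were over the cutoff. ACP3 rose in all 3 mutants, with a log2 fold change of 2.54 ± 0.27 in brm-3dog1-4 (edgeR adjusted p 5.73e-12), 2.06 ± 0.32 in dog1-4 (edgeR adjusted p 5.97e-07) and 1.06 ± 0.35 in brm-3 (edgeR adjusted p 0.0370). The brm-3 call was lost with DESeq2, with no filter on low counts, and without any one of Col-0 replicates 2 and 3 or brm-3 replicates 1, 2 and 3. ACP2 had 0.683, 1.21, 0 and 1.18 CPM in brm-3, 6.83, 1.29, 4.07 and 3.82 in dog1-4, 9.53, 11.6, 7.01 and 9.21 in brm-3dog1-4, and 0.505, 2.44, 0.804 and 0.643 in Col-0. Its brm-3dog1-4 libraries were above all others, while dog1-4 overlapped Col-0 through its second library. With 1 to 3 counts in each Col-0 library, the ratio of CPM from summed counts to Col-0 was 9.84 (exact 95% interval 4.35 to 27.5) in brm-3dog1-4, 4.48 (1.76 to 13.5) in dog1-4 and 0.772 (0.186 to 3.04) in brm-3. The fitted log2 fold change was 3.18 ± 0.47 in brm-3dog1-4 (edgeR adjusted p 7.55e-08) and 2.07 ± 0.61 in dog1-4 (edgeR adjusted p 0.0104), the second of which was lost with DESeq2 and without Col-0 replicate 1 or dog1-4 replicate 1. ACP2 passed the filter only with the brm-3dog1-4 libraries, so it had to be high there to be tested at all. ACP2 and ACP3 share a run of 32 identical bases in the last 500 bases of their transcripts, so reads from there may not be assigned to 1 of them with certainty. ACP4, the main carrier of leaves, was not called in any comparison with Col-0, with 0.62 ± 0.37 in brm-3dog1-4, and ACP1 had at most 4 counts in a library.

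**Figure D2:**
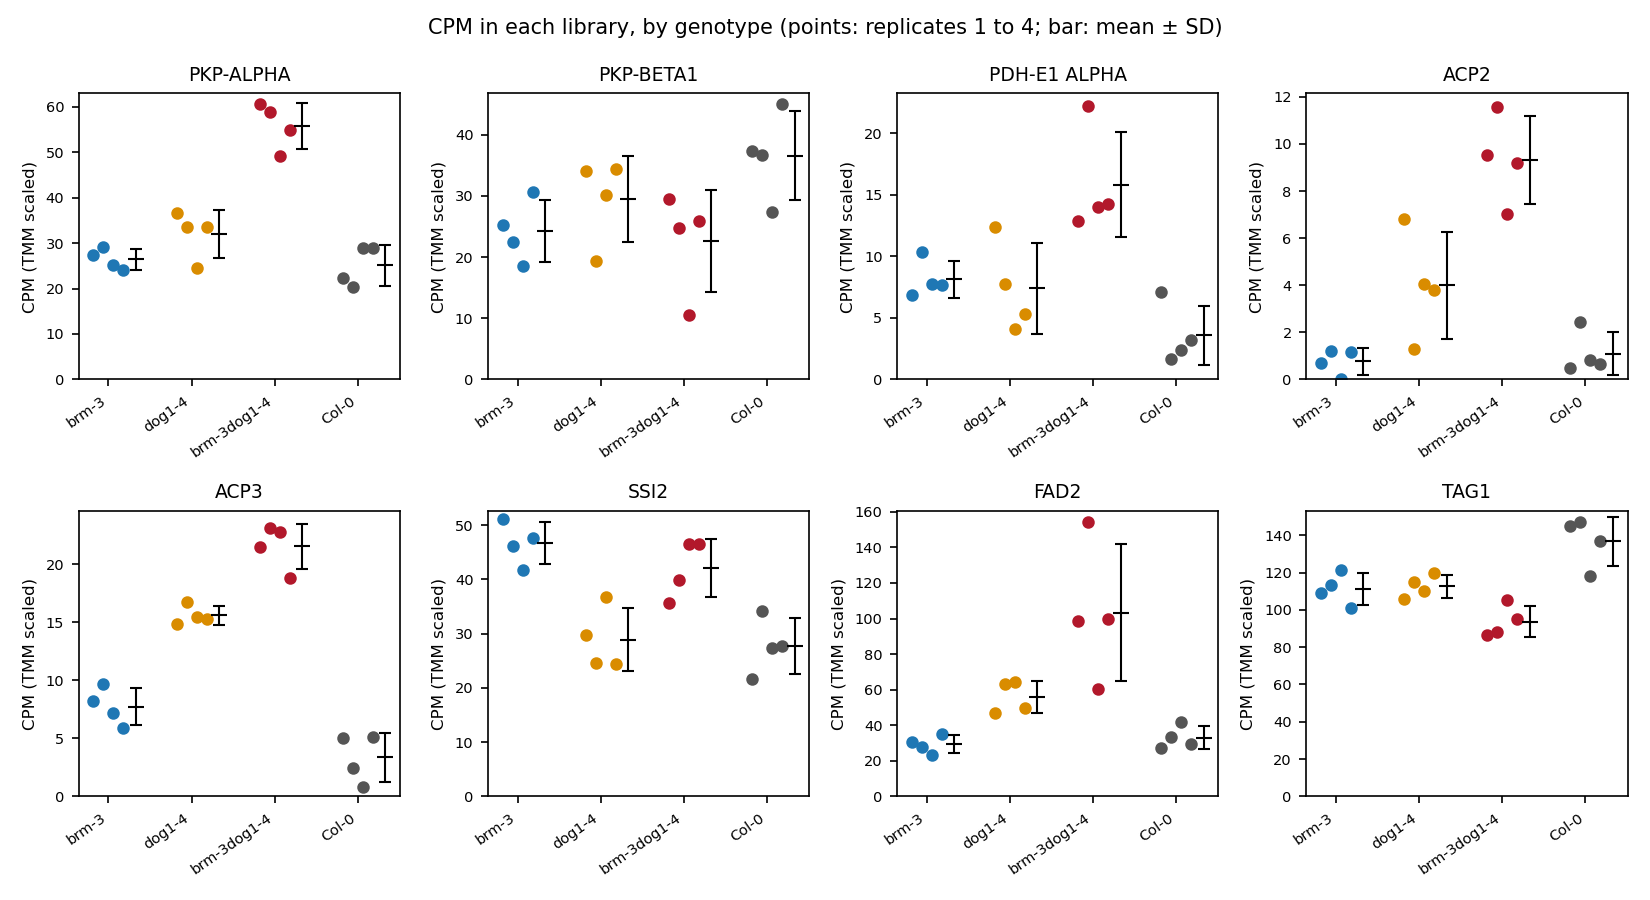
CPM in each library for 8 of the genes, by genotype, with points for replicates 1 to 4 and a bar for the mean and SD. The ACP3 points separate all 4 genotypes, the SSI2 points are high in brm-3 and brm-3dog1-4, and the TAG1 points of brm-3dog1-4, at 86.6 to 105 CPM after TMM scaling, lie below the Col-0 points at 118 to 147 CPM, although TAG1 did not differ when total counts were used.

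Release and export of fatty acids could be tested through FATB, the thioesterase that frees mainly saturated acyl chains. FATB had 9.56, 12.1, 13.1 and 13.5 CPM in brm-3, 16.1, 11.6, 18.7 and 9.92 in dog1-4, 12.8, 15.7, 12.3 and 14.2 in brm-3dog1-4, and 11.1, 16.3, 12.9 and 11.6 in Col-0. The genotypes overlapped, and none of the differences was called, with log2 values of 0.15 ± 0.22 in brm-3dog1-4, 0.18 ± 0.24 in dog1-4 and -0.06 ± 0.24 in brm-3. The thioesterase FaTA, with at most 4 counts in a library, was the only 1 of the 19 genes under the filter whose mean CPM was below that of Col-0 in all 3 mutants. LACS9, a long-chain acyl-CoA synthetase, had at most 2.

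The 2 desaturases that passed the filter behaved differently in the single mutants. SSI2, the stearoyl-ACP desaturase of the plastid, had 51.2, 46.1, 41.8 and 47.6 CPM in brm-3, 29.8, 24.5, 36.7 and 24.4 in dog1-4, 35.6, 39.8, 46.4 and 46.5 in brm-3dog1-4, and 21.7, 34.2, 27.3 and 27.6 in Col-0. Libraries of brm-3 and of brm-3dog1-4 lay above all Col-0 libraries, and those of dog1-4 overlapped them. The log2 fold change was 0.78 ± 0.16 in brm-3 (edgeR adjusted p 0.000245), 0.61 ± 0.15 in brm-3dog1-4 (edgeR adjusted p 0.000683) and 0.10 ± 0.18 in dog1-4, where it was -0.02 without Col-0 replicate 1 and -0.03 without dog1-4 replicate 3. FAD2, which desaturates oleate at the endoplasmic reticulum, had 30.7, 27.9, 23.3 and 35.3 CPM in brm-3, 47.2, 63.2, 64.3 and 49.6 in dog1-4, 98.6, 154, 60.5 and 99.6 in brm-3dog1-4, and 27.3, 33.4, 41.8 and 29.6 in Col-0. Both genotypes with dog1-4 lay above all Col-0 libraries, and brm-3 overlapped them. FAD2 rose by 1.73 ± 0.24 in brm-3dog1-4 (edgeR adjusted p 1.30e-05). In dog1-4 the log2 fold change was 0.77 ± 0.28 with an edgeR adjusted p of 0.0670, which missed the threshold. With total counts, no filter, DESeq2, only the groups compared or the replicate number as a block, and without Col-0 replicate 3, brm-3dog1-4 replicate 2 or brm-3dog1-4 replicate 3, the dog1-4 difference passed it. FAD3, which desaturates linoleate further, had 3, 9, 4 and 3 counts in brm-3, 1, 0, 0 and 1 in dog1-4, 4, 18, 0 and 5 in brm-3dog1-4, and 5, 1, 0 and 3 in Col-0, with overlap between brm-3dog1-4 and every other genotype. KCS18, the condensing enzyme of very-long-chain fatty acids in seeds, had 2 counts in brm-3, 2 in dog1-4, 2 in brm-3dog1-4 and 0 in Col-0.

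Oil assembly is the last step. Of its 6 genes 5 passed the filter, of which edgeR called 0 in either single mutant and 1, TAG1, in the double mutant. At an unadjusted p under 0.05, TAG1 was lower in all 3 mutants and LPLAT2 in dog1-4, and DESeq2 called neither in the single mutants. TAG1, the diacylglycerol acyltransferase also named DGAT1, had 109, 113, 121 and 101 CPM in brm-3, 106, 115, 110 and 120 in dog1-4, 86.6, 88.0, 105 and 95.0 in brm-3dog1-4, and 145, 147, 118 and 137 in Col-0. The third Col-0 library was the lowest of its group and was within the range of both single mutants, but above all brm-3dog1-4 libraries. TAG1 fell by 0.56 on the log2 scale in brm-3dog1-4 relative to the median gene (SE 0.10, edgeR adjusted p 7.09e-06), but with total counts the value was 0.0022. In brm-3 it was -0.30 ± 0.11 (edgeR adjusted p 0.0522) and in dog1-4 -0.29 ± 0.11 (edgeR adjusted p 0.0521), just outside the threshold, and both passed it with the replicate number as a block and without Col-0 replicate 3 or brm-3dog1-4 replicate 3. GPAT9, LPLAT1, LPLAT2 and PDAT, acyltransferases that build or reshape glycerolipids, had log2 fold changes in brm-3dog1-4 of 0.23, -0.23, -0.29 and 0.30 and were not called. GPAT9 nevertheless had 28.0 to 31.9 CPM in brm-3dog1-4, above the 22.0 to 27.6 CPM of Col-0 in every library, and with total counts GPAT9 (0.80) and PDAT (0.87) were called higher by edgeR. The end of GPAT9 overlaps a gene on the other strand by 141 bases, and how the counting used strand is not given. ROD1, which exchanges head groups between phosphatidylcholine and diacylglycerol, had 1 count over all 16 libraries together.

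**Figure D3:**
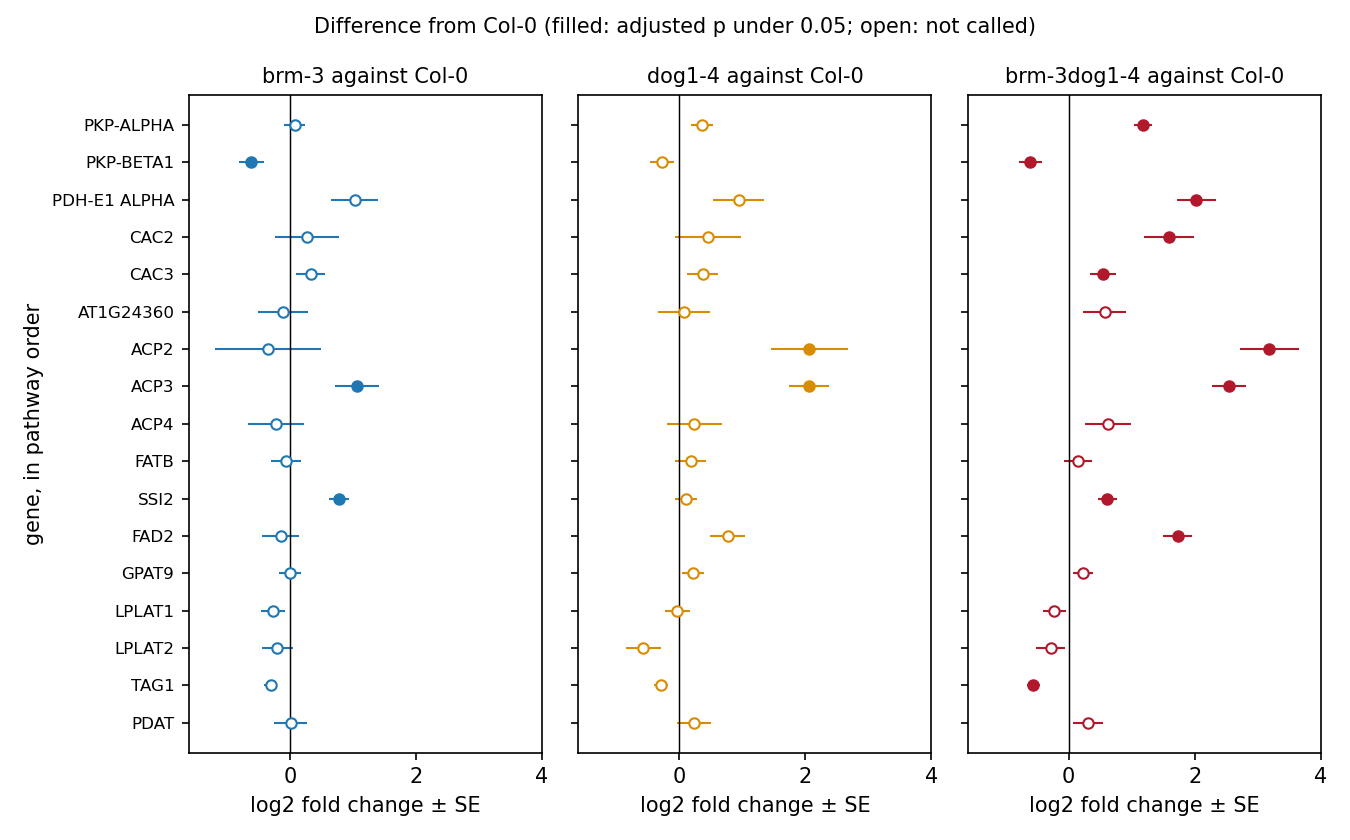
Log2 fold change from Col-0 (x axis, with SE as bars) of the 17 genes that passed the count filter in pathway order (y axis), with 1 panel for each mutant, filled where edgeR's adjusted p was under 0.05. In brm-3dog1-4 the filled points to the right of 0 lie in the rows from PKP-ALPHA to FAD2, among which AT1G24360, ACP4 and FATB are open. PKP-BETA1, at -0.61, is filled to the left of 0. Below FAD2, after TMM scaling, TAG1 at -0.56 is the one filled point, which moves to 0.0022 with total counts.

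The 19 genes under the filter were low in all genotypes and were highest in the double mutant as a sum. Their summed level was 15.1 ± 3.31 CPM in brm-3, 18.2 ± 2.10 in dog1-4, 37.4 ± 8.34 in brm-3dog1-4 and 12.3 ± 2.75 in Col-0 (SD, n = 4 each). The brm-3dog1-4 libraries, at 27.2 to 47.5 CPM, lay above all others, whose highest was 20.6, and both brm-3 and dog1-4 overlapped Col-0. The mean was 3.03 times that of Col-0 in brm-3dog1-4, 1.48 times in dog1-4 and 1.22 times in brm-3, where all 10953 genes under the filter gave 1.29 times in the double mutant, 1.11 times in dog1-4 and 1.02 times in brm-3. Between 12 and 17 of the 19 had at least 1 count in a brm-3dog1-4 library, 8 to 14 in dog1-4, 9 to 13 in brm-3 and 6 to 11 in Col-0. When the filter was dropped, 5 of the 19, WRI1, CAC1, EMB3147, KASI and FAB1, were called higher in brm-3dog1-4, beside 7.77% of all genes under the filter. For brm-3 and dog1-4 that fit called 0 of the 19, as did DESeq2, which gave no adjusted p for 18 and 13 of them. At an unadjusted p under 0.05 it had 0 in brm-3 and 2, BCCP2 and KAS III, in dog1-4.

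**Figure D4:**
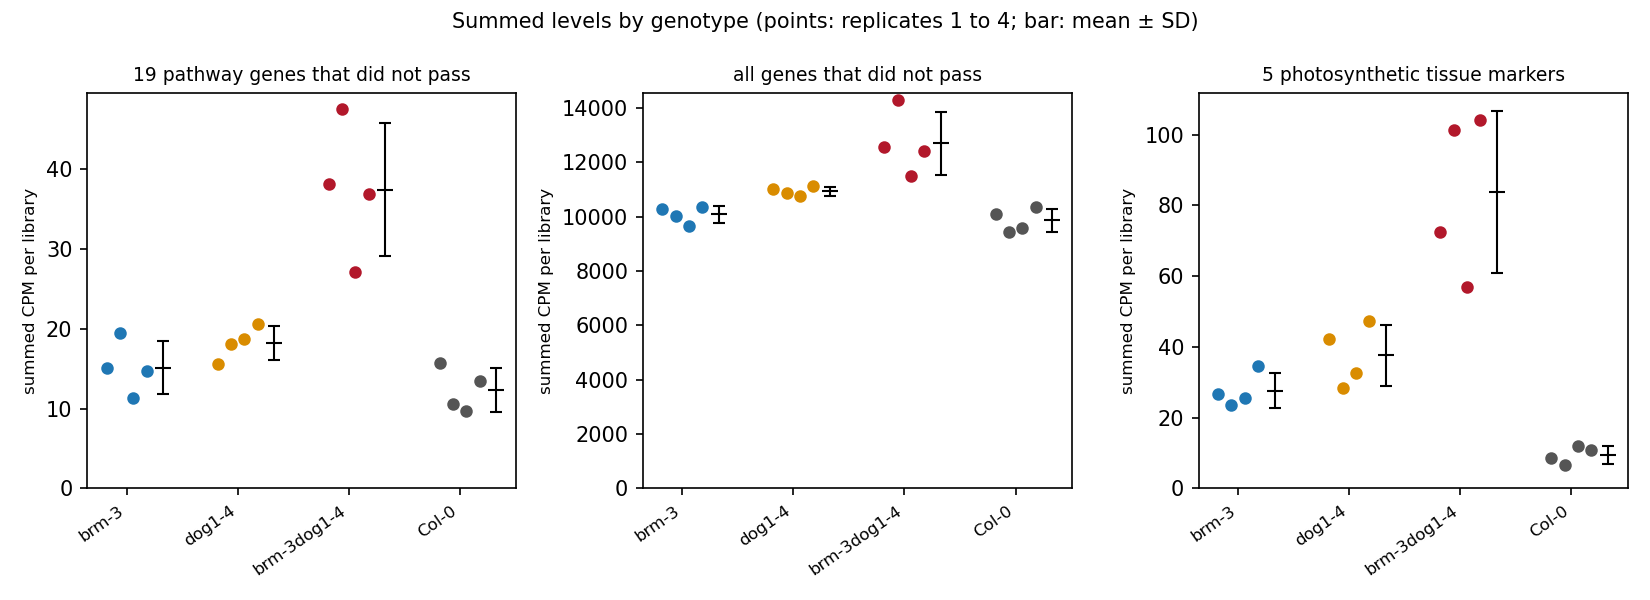
Summed CPM per library, by genotype, of the 19 genes that did not pass the count filter, of all 10953 such genes, and of 5 markers of photosynthetic tissue, with points for replicates 1 to 4 and a bar for the mean and SD. In all 3 panels the brm-3dog1-4 libraries lie above those of Col-0, at 27.2 to 47.5 against 9.65 to 15.6 CPM in the first and 56.9 to 104 against 6.51 to 12.1 CPM in the last.

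Several measures moved with these differences, and their part in the result was not tested. The 5 markers of photosynthetic tissue summed to 23.7 to 34.7 CPM in brm-3, 28.4 to 47.3 in dog1-4, 56.9 to 104 in brm-3dog1-4 and 6.51 to 12.1 in Col-0. Most of that sum was RBCS1A, a small subunit of Rubisco. LHB1B1 was at 0 in every library of dog1-4, of the double mutant and of Col-0, RBCS3B was at 0 in all Col-0 libraries, and CAB1 and LHCA1 had at most 11 counts in a library. The 7 seed maturation markers held a lower share in every brm-3dog1-4 library than in any Col-0 library, as given above. They did not fall together, since 4 of them (OLEO1, OLEO2, EM1 and GEA6) were each below all Col-0 libraries while CRA1, CRU3 and SESA1 overlapped Col-0. CRA1, a cruciferin, went toward higher values, with 21570 to 27745 CPM in brm-3dog1-4 against 15245 to 24945 in Col-0. GEA6, a late embryogenesis protein, had 16993 to 19505 CPM in brm-3, 10682 to 14479 in dog1-4, 4936 to 7346 in brm-3dog1-4 and 22251 to 29129 in Col-0. Of 2 endosperm markers, EPR1 overlapped between brm-3dog1-4 and Col-0, while EXPA2, an expansin, had 12, 37, 1 and 16 counts in brm-3dog1-4 and 0 in every Col-0 library. Lastly, when total counts replaced TMM, the median tested gene stood 0.58 above Col-0 in brm-3dog1-4, 0.22 above it in dog1-4 and 0.03 above it in brm-3 (log2). On that scale 13 of the 17 genes were higher and 0 lower in brm-3dog1-4, and the share of all tested genes called was not counted. All directions above that rest on TMM scaling are therefore relative to the median gene.

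The double mutant was also set against each of its parents, where the share of the 17 genes called was near that of all tested genes. Against brm-3, 7 genes were called (41.2%, against 38.2% of all tested genes), 6 of them higher in brm-3dog1-4. They were PKP-ALPHA (1.10 ± 0.14), PDH-E1 ALPHA (1.00 ± 0.26), CAC2 (1.31 ± 0.37), ACP2 (3.53 ± 0.49), ACP3 (1.47 ± 0.22) and FAD2 (1.87 ± 0.24), in log2 with SE. The lower one was TAG1 (-0.26 ± 0.11), a call lost under most alternatives and turned to 0.28 with total counts. Against dog1-4, 6 genes were called (35.3%, against 27.6% of all tested genes), all higher in brm-3dog1-4: PKP-ALPHA (0.81 ± 0.14), PDH-E1 ALPHA (1.08 ± 0.29), CAC2 (1.14 ± 0.39), ACP2 (1.12 ± 0.36), SSI2 (0.51 ± 0.16) and FAD2 (0.96 ± 0.22). Since CAC2 and ACP2 passed the filter only through the brm-3dog1-4 libraries, they had to be high there. Of the 13 genes that passed without those libraries, 4 were higher and 1 lower against brm-3, and 4 were higher against dog1-4. CAC2, ACP2 and SSI2 lost the call against dog1-4 with DESeq2. CAC2 also lost it without dog1-4 replicate 1, 2 or 4 or brm-3dog1-4 replicate 2 or 4, ACP2 without dog1-4 replicate 2 or brm-3dog1-4 replicate 2, and SSI2 without dog1-4 replicate 4.

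The single mutants differed from each other in 4 genes (16.4% of all tested genes). SSI2 was higher in brm-3 than in dog1-4 (0.67 ± 0.16), whereas FAD2 (-0.91 ± 0.28), ACP2 (-2.41 ± 0.63) and ACP3 (-0.997 ± 0.264) were lower. The FAD2 call was lost without Col-0 replicate 2, dog1-4 replicate 2, 3 or 4, or brm-3 replicate 1, 2 or 3, and the ACP2 call without dog1-4 replicate 1. The interaction asks whether the brm-3dog1-4 change departs from the brm-3 and dog1-4 changes added together on the log2 scale. It was called for 1 gene, PKP-ALPHA (0.73 ± 0.23, edgeR adjusted p 0.0283), where 8.79% of all tested genes were called. This call was lost without any one of Col-0 replicates 3 and 4, dog1-4 replicate 3, brm-3 replicates 3 and 4, or brm-3dog1-4 replicates 1 and 2. For FAD2 the interaction was 1.10 ± 0.37 with an edgeR adjusted p of 0.0794.

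Of 38 other genes of the same pathway, 21 passed the filter. In brm-3, 3 were higher and 0 lower (0 also with DESeq2, and 2 at an unadjusted p under 0.05), in dog1-4 4 were higher and 3 lower, and in brm-3dog1-4 6 were higher and 5 lower. Over all tested genes the shares were 5.22% higher and 5.02% lower in brm-3, 9.84% and 8.58% in dog1-4, and 22.8% and 23.3% in brm-3dog1-4, so that 11 calls among 21 genes in the double mutant lie near the background. The 2 with the smallest adjusted p were both listed under oil assembly, and they went opposite ways. DGAT3, a soluble acyltransferase, had 94.9, 89.2, 93.8 and 86.4 CPM in brm-3, 77.6, 62.0, 99.4 and 83.2 in dog1-4, 141, 124, 149 and 140 in brm-3dog1-4, and 52.5, 67.5, 49.9 and 46.9 in Col-0. It rose by 0.76 ± 0.13 in brm-3 (edgeR adjusted p 1.06e-05), 0.60 ± 0.13 in dog1-4 (edgeR adjusted p 0.000456) and 1.35 ± 0.12 in brm-3dog1-4 (edgeR adjusted p 8.62e-15), and only dog1-4 overlapped Col-0. AT3G44830, a relative of PDAT, had 34.1, 34.0, 37.6 and 35.9 CPM in brm-3, 29.8, 24.5, 26.9 and 33.6 in dog1-4, 12.4, 14.8, 13.1 and 19.7 in brm-3dog1-4, and 38.9, 59.4, 45.0 and 33.4 in Col-0. It fell by 1.51 on the log2 scale in brm-3dog1-4 (SE 0.17, edgeR adjusted p 4.14e-11), below all other libraries, and by 0.57 in dog1-4 (SE 0.17, edgeR adjusted p 0.0115), a call lost with total counts and without Col-0 replicate 2. In brm-3 the value was -0.29 ± 0.16 and was not called.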

How the data were processed

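Per the labels and the study's methods, 3′RNA-Seq libraries were made from 500 ng of dry seed RNA with barcoded oligo(dT) primers. For each of the 16 libraries the authors deposited unnormalized whole-number counts for 37336 locus identifiers. The submitters' processing notes name STAR 2.7.8a, DESeq2 and the build TAIR10. The counting program, the use of strand and any molecular identifiers are not given in the sources used here, so overlapping and near-identical genes are uncertain. Symbols and promoter windows came from RefSeq's TAIR10.1, which held 37051 of the identifiers.

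Counts were fitted with edgeR 4.0.16 in R 4.3.3 (TMM, filterByExpr by genotype, robust quasi-likelihood test), with all 16 libraries in 1 fit and 7 contrasts. P-values were adjusted by Benjamini-Hochberg over the 10251 tested genes and called under 0.05 at any fold change. SE is the log2 fold change divided by the root of the F value. Log2 CPM used a prior count of 2, and the floor for a library is 3 counts. The fitting code was tested on simulated data. P-values set a difference between genotypes against the spread of libraries within genotypes, estimated over all 16 libraries.

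Genes, lists and tests were chosen with earlier results of these data known. Given in every library are WRI1, the gene of each step with the smallest adjusted p against Col-0, the 3 largest called increases and decreases of each comparison, and 2 other pathway genes. CAC1 and FAD3 are outside that rule. Alternatives were RLE, upper-quartile and total-count scaling, other filters on low counts, DESeq2 1.42.0, fits of the compared groups alone, a replicate block, and each library left out. Counts of non-overlapping libraries and counting intervals were added after the data were seen. Seed coat markers summed to at most 1.53 CPM, and the endosperm marker EPR1 held nearly all of the endosperm sum of 1.96% to 2.65% of the scaled counts.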

Additional observations from a re-analysis of the deposited data

Results flagged for a closer look

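In 68 sets of 4 libraries (17 genes in 4 genotypes), 3 held 1 library far from the other 3, by a test that chance meets in about 1 of 20 sets. PDH-E1 ALPHA had 22.2 CPM in brm-3dog1-4 replicate 2, against 12.8 to 14.2 in the other 3 libraries of that genotype. ACP2 had 2.44 CPM in Col-0 replicate 2, from 3 counts, against 0.505 to 0.804 in the other Col-0 libraries. GPAT9 had 41.2 CPM in dog1-4 replicate 4, against 25.3 to 27.1 in the other dog1-4 libraries. For PKP-ALPHA the change in brm-3dog1-4 differed from the sum of the single mutant changes by 0.73 on the log2 scale.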

How the results depend on the processing

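The 8 genes higher in brm-3dog1-4 than in Col-0 became 13 with total counts, 13 with no filter on low counts, and 3 of the 7 genes tested with at least 10 counts required in every library, where fewer genes enter. With no filter, 14.3% of all 21204 genes with a count were called higher there, against 22.8% of the tested genes in the main fit. The 2 lower genes became 0 with total counts. Against brm-3 the 7 calls became 16 with total counts, 14 with no filter and 2 with at least 10 counts, and against dog1-4 the 6 calls became 10 with no filter and 3 with at least 10 counts. The share of all tested genes called was not counted with total counts or with at least 10 counts, nor with no filter against brm-3 or dog1-4, so these counts have no background beside them. Between brm-3 and dog1-4 the 4 calls became 2 with at least 10 counts. In brm-3 the 2 higher genes became 1 with no filter, at least 10 counts, DESeq2 and only the groups compared. The 1 lower gene became 2 with RLE, upper-quartile normalization, at least 10 counts, only the groups compared and the replicate block, and 0 with total counts and DESeq2. In dog1-4 the 2 higher genes became 5 with total counts and 0 with at least 10 counts, and the 0 lower genes became 1 with the replicate block. The 1 interaction became 2 with total counts, no filter, DESeq2 and the replicate block. Except where fewer genes or samples enter by construction, the cause was not tested. Leaving out each replicate in turn gave 7 to 9 higher and 2 to 2 lower genes in brm-3dog1-4, 1 to 3 and 0 to 2 in brm-3, 1 to 3 and 0 to 1 in dog1-4, 6 to 8 calls against brm-3, 4 to 8 against dog1-4, 3 to 4 between the single mutants and 0 to 2 interactions. TAG1 turned to 0.0022 in brm-3dog1-4 against Col-0 and 0.28 against brm-3 with total counts. Uncalled values that changed sign with 1 replicate left out ranged from -0.13 to 0.72 (CAC2, dog1-4), -0.21 to 0.0284 (AT1G24360, brm-3), -0.31 to 0.30 (AT1G24360, dog1-4), -0.14 to 0.0532 (FATB, brm-3), -0.0266 to 0.21 (SSI2, dog1-4) and -0.64 to 0.27 (ACP2, brm-3). Libraries with the same replicate number did not deviate together (correlation -0.03 to 0.07 over 24 pairs), so the numbers were not taken as pairs. Depth limits the low genes in every genotype, since 3 counts correspond to 1.51 to 2.44 CPM in Col-0.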
